A study of Mus musculus with 3 samples.

Results

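Albumin, alpha-fetoprotein, a pair of simple-epithelium keratins and 3 further liver plasma proteins were followed through ribosome profiling of mouse testis. The 7 genes are Alb, Afp, Krt18, Krt8, Ttr, Apoa1 and Apob, out of 22183 gene IDs in the deposited tables. Alb, Afp and Krt18 were chosen because earlier results of these data had them near 0 in wild type and present in both knockout libraries. Krt8, Ttr, Apoa1 and Apob were added to ask whether liver, endoderm or epithelium could be the source. Differences between knockout and wild type in the 7 genes are therefore given as a description, with no test. No numeric limit was set for the choice. Krt18 was taken as near 0 with 11 counts in wild type, where Krt8, added for comparison, had 175.

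Ribosome profiling sequences the RNA pieces that ribosomes shield from nuclease, so that reads over a gene follow the ribosomes its RNA carries. The series holds 2 testis libraries labelled TSCL1_Lnc_KO (KO1 and KO2), from mice that lack the long noncoding RNA TSCL1, and 1 testis library labelled TSCL1_WT (WT). Strain, age, the deleted allele and whether the knockout libraries came from separate animals are not given in the labels. The series title links TSCL1 to translation of target mRNAs through PIWIL1, a germ-cell protein that binds piRNAs. The files give Ensembl IDs without names, and the gene table used here holds no Ensembl IDs. The level of TSCL1 and the markers of testis cell types were therefore not looked up, and the labels were not checked against them.

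KO1 held 19827686 counts in total, KO2 held 31667845 and WT held 13126663. KO2 stood apart from the other libraries: over 16208 tested IDs the median absolute log2 difference in level was 0.43 between KO2 and KO1 and 0.45 between KO2 and WT, against 0.17 between KO1 and WT. Each value below is accordingly given for KO1 and KO2 separately. Levels are in CPM, counts scaled to library size with TMM factors, and intervals are 95% exact Poisson or binomial intervals that cover counting error only. In bulk tissue, fewer cells of a type and less RNA per cell cannot be told apart.

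Albumin is the main protein of blood plasma and is made by hepatocytes in adult mammals. Alpha-fetoprotein is its relative in the fetus, made by fetal liver and yolk sac and shut down after birth. Transthyretin (Ttr) carries thyroid hormone and retinol-binding protein, Apoa1 is the core protein of high-density lipoprotein, and Apob is that of low-density lipoprotein and chylomicrons. The liver secretes all of these in large amounts, Afp before birth and the others throughout life. Keratin 8 (Krt8, type II) and keratin 18 (Krt18, type I) pair with each other to build the intermediate filaments of simple epithelia, hepatocytes included.

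Both gene pairs are neighbours in the genome. Per RefSeq on build GRCm38.p6, Alb lies at chr5:90460870-90476602 and Afp at chr5:90490714-90508907, both on the plus strand, with 14111 bases and 0 annotated genes between them. Krt8 lies at chr15:101996711-102004342 on the minus strand and Krt18 at chr15:102028216-102032026 on the plus strand, pointing away from each other, with 23873 bases and 2 predicted genes between them. Apoa1 is at chr9:46228630-46230469 and Apob at chr12:7977629-8016839, both on the plus strand. All 7 are annotated as protein-coding.

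The 250 bases before the annotated starts of the neighbouring pairs are shown for a description of these loci, since Alb, Afp and Krt18 were chosen for their levels and Krt8 is the filament partner of Krt18. The sequences are RefSeq's, 5′ to 3′ on the strand of the gene, at chr5:90460620-90460869 for Alb, chr5:90490464-90490713 for Afp, chr15:102027966-102028215 for Krt18 and, on the minus strand, chr15:102004343-102004592 for Krt8. Capitals mark matches, on either strand, to any of 5 short motifs. The first is TATAAA, which places the start of transcription in many genes. The others are CCAAT, a common element of upstream regions, GTTAAN, a half-site of the liver-enriched factor HNF1, TTNNGCAA, the pattern of the liver-enriched C/EBP factors, and GGGCGG, bound by the general factor Sp1.
Alb: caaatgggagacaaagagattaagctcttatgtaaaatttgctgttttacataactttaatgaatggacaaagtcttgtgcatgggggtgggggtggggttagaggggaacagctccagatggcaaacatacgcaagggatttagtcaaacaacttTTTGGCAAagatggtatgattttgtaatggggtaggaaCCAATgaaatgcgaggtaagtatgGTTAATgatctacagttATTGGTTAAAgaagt
Afp: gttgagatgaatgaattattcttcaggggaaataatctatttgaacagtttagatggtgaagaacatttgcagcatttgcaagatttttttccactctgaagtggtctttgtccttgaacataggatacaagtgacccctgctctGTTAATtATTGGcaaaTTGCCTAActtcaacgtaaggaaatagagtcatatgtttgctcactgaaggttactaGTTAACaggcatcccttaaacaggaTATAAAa
Krt18: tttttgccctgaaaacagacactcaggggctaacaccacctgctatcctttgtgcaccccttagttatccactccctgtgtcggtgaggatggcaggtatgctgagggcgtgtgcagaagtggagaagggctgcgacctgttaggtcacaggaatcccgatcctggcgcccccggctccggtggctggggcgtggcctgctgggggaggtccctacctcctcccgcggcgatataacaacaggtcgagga
Krt8: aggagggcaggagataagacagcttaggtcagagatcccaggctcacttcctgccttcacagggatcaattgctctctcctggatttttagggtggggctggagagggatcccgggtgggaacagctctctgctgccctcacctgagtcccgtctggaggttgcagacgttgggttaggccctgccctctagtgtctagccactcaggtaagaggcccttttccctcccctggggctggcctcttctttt

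The upstream windows of Alb and Afp and those of the keratins differed in composition. G and C made up 39.2% of the Alb window and 36.0% of the Afp window, and 60.4% of the Krt18 window and 58.0% of the Krt8 window. The HNF1 half-site was found in the Alb window as GTTAAT, 32 to 27 bases before the annotated start, and again as GTTAAA 11 to 6 bases before it. That second match overlaps a CCAAT on the opposite strand. In the Afp window it was found as GTTAAC, also 32 to 27 bases before the start and matching on both strands, and as GTTAAT 105 to 100 bases before it. Matches to TTNNGCAA stood 94 to 87 bases before the start of Alb and 89 to 82 bases before that of Afp. A TATAAA stood 7 to 2 bases before the annotated start of Afp. All distances here are to annotated starts, and where transcription starts in testis was not tested. The windows of Apoa1 and Apob, not printed here, were searched as well. Apob had TTNNGCAA 90 to 83 bases and TATAAA 60 to 55 bases before its start, and no match to GTTAAN. None of the 5 motifs had a match in the Krt18, Krt8 or Apoa1 window, and letters that run across the annotated start were not searched. Among 32851 RefSeq promoter windows of the same length, 21.6% held GTTAAN, 9.56% TTNNGCAA, 33.9% CCAAT, 12.4% TATAAA and 32.7% GGGCGG. Letter matches describe these windows and do not show that a factor binds.

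Albumin reads were found in both knockout libraries, and 0 were found in WT. Alb (ENSMUSG00000029368) had 101 counts in KO1 and 275 in KO2, against 0 in WT. Its level was 5.36 CPM in KO1 (4.36 to 6.51) and 8.60 CPM in KO2 (7.61 to 9.68), a knockout mean of 6.98 ± 2.29 CPM (SD, n = 2). The WT library would have held 73.1 counts at the level of KO1 and 117 at that of KO2. The exact Poisson interval for 0 counts in WT reaches 3.69 counts, or 0.270 CPM. For folds, a floor of 3 counts was used instead, which is 0.220 CPM in WT. With WT set to that floor, Alb was 33.7-fold higher over the summed knockout libraries, 24.4-fold higher in KO1 and 39.1-fold higher in KO2. These folds hold for that floor only. They leave out counting error in the knockout libraries and are not lower limits.

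Afp had the same presence in knockout and near absence in WT. Afp (ENSMUSG00000054932) had 77 counts in KO1 and 203 in KO2, against 1 in WT. These are 4.08 CPM in KO1 (3.22 to 5.10) and 6.35 CPM in KO2 (5.51 to 7.28), against 0.0732 CPM in WT (0.00185 to 0.408). The knockout mean was 5.22 ± 1.60 CPM (SD, n = 2). Over the summed knockout counts Afp was 75.2-fold higher than in WT, with an interval of 13.4 to 2981 that is wide because it rests on a single WT read. The ratio was 55.8 for KO1 and 86.7 for KO2.

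Keratin 18 was low in WT but not absent. Krt18 (ENSMUSG00000023043) had 197 counts in KO1 and 587 in KO2, against 11 in WT. Its level was 10.4 CPM in KO1 (9.04 to 12.01) and 18.4 CPM in KO2 (16.9 to 19.9), against 0.806 CPM in WT (0.402 to 1.44). The mean was 14.4 ± 5.59 CPM in knockout (SD, n = 2). This made it 19.1-fold higher over the summed knockout libraries (10.6 to 38.5), with 13.0-fold in KO1 and 22.8-fold in KO2.

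Keratin 8, the filament partner of keratin 18, was present in all 3 libraries. Krt8 (ENSMUSG00000049382) had 441 counts in KO1 and 593 in KO2, against 175 in WT. The level reached 23.4 CPM in KO1 (21.3 to 25.7) and 18.5 CPM in KO2 (17.1 to 20.1), against 12.8 CPM in WT (11.0 to 14.9). The knockout mean of 21.0 ± 3.42 CPM (SD, n = 2) was 1.59-fold that of WT by summed counts (1.35 to 1.87). Both knockout libraries lay above WT, but by 1.82-fold in KO1 and 1.45-fold in KO2. A pseudogene, Krt8-ps, is annotated in the gene table, and the handling of reads shared with it is not known here.

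Of the other liver plasma proteins, Ttr and Apoa1 were at or near 0 in every library, and Apob was low. Ttr (ENSMUSG00000061808) had 0 counts in KO1 and 1 in KO2, against 1 in WT. Apoa1 (ENSMUSG00000032083) had 4 counts in KO1 and 6 in KO2, against 0 in WT, which is 0.212 CPM in KO1 and 0.188 CPM in KO2. Both of these levels lie under 0.220 CPM, the floor used for 0 counts in WT, so no fold is given. Apob (ENSMUSG00000020609) had 13 counts in KO1 and 58 in KO2, against 11 in WT. That is 0.689 CPM in KO1 (0.367 to 1.18) and 1.81 CPM in KO2 (1.38 to 2.34), against 0.806 CPM in WT (0.402 to 1.44), which places WT between KO1 and KO2. Apob in KO2 was 2.25-fold that of WT (1.17 to 4.76), and in KO1 0.856-fold (0.354 to 2.11).

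**Figure D1:**
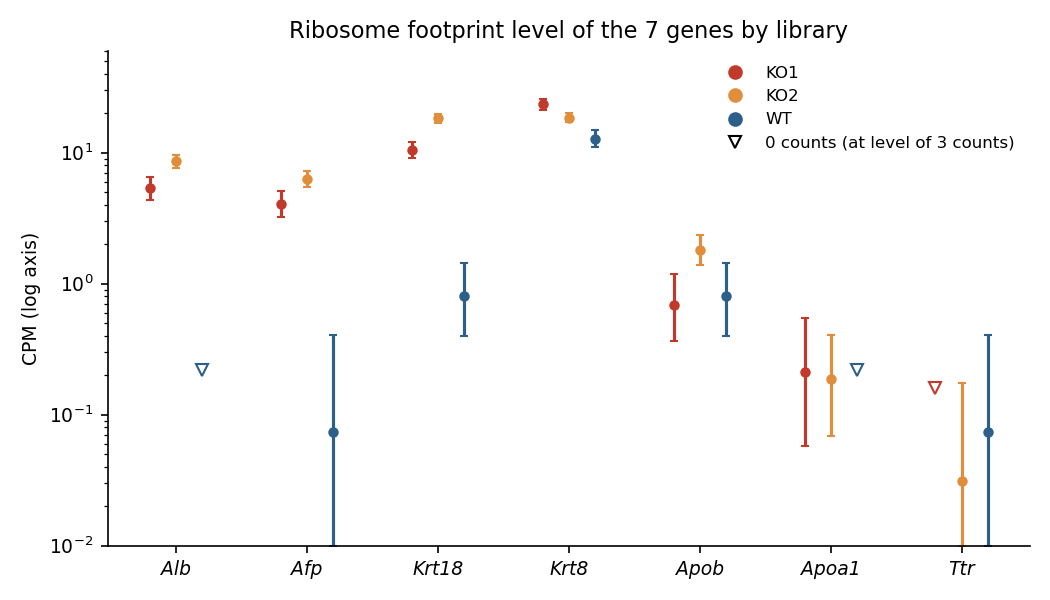
Footprint level in CPM (log axis) of the 7 genes in KO1, KO2 and WT, with 95% exact Poisson intervals; bars that reach the lower edge run on below it, and open triangles are libraries with 0 counts, drawn at the level of 3 counts. Alb, Afp and Krt18 lie between 4.08 and 18.4 CPM in the knockout libraries and at most at 0.806 CPM in WT, Krt8 is above 12 CPM in all 3, and Apob, Apoa1 and Ttr stay under 2 CPM.

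Set against all genes, the count of members above WT was as follows. Both knockout libraries exceeded WT in 5 of the 7 genes (Alb, Afp, Krt18, Krt8 and Apoa1). Among the 16208 tested IDs, which leave out Apoa1 and Ttr, 29.8% did so. Of the 5 tested genes of the set, all but Apob did so. Alb, Afp and Krt18 exceeded WT by at least 2-fold in both knockout libraries, as 2.18% of tested IDs did. Apoa1 did so only against 0 counts. The filter on low counts passed 5 of the 7 genes, with Ttr at 2 and Apoa1 at 10 counts in sum left out. Alb, Afp and Krt18 passed it through their knockout levels. In edgeR's quasi-likelihood test, 16 of 16208 IDs (0.0987%) passed an adjusted p threshold of 0.05, with 10 (0.0617%) higher in knockout. Alb, Afp and Krt18 were among these 10, while Krt8 and Apob did not pass. Since the 3 genes were chosen on this contrast, nothing is read from these counts. DESeq2 called Alb and Krt18 but not Afp, and limma on the deposited FPKM values called none of the 7. The test has 1 residual degree of freedom, from KO1 and KO2, and takes the lone WT library to vary as they do.

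**Figure D2:**
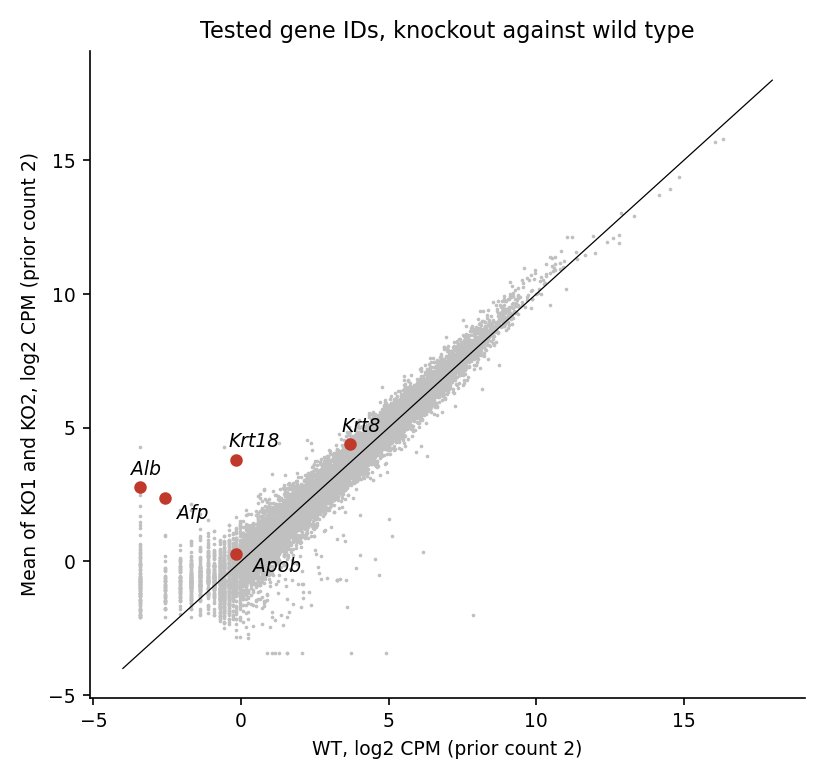
Mean log2 CPM of KO1 and KO2 (vertical) against log2 CPM of WT (horizontal), with a prior count of 2, for 16208 tested gene IDs in grey and the 5 tested genes of the set in red; the line marks equal levels. Alb, Afp and Krt18 lie 6.21, 4.96 and 3.96 log2 units above the line, Krt8 0.70 and Apob 0.44.

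The pattern of Alb was shared by unnamed IDs. Likeness was measured as the distance between log2 CPM values over the 3 libraries, among 15715 other IDs with at least 30 counts in sum. The ID most like Alb was ENSMUSG00000073257, with 100 counts in KO1 and 214 in KO2, against 0 in WT, at a distance of 0.36. Nearest to Krt18 was ENSMUSG00000072726, with 356 counts in KO1 and 649 in KO2, against 8 in WT, at 0.95. The files do not name these IDs. Alb and Afp lay 1.02 apart, and Krt18 lay 3.58 from Alb, 3.16 from Afp and 4.01 from Krt8. Counted from Alb, Krt18 ranked 36 in nearness, and from Afp it ranked 91. Counted from Krt18, Afp ranked 803, Alb 2274 and Krt8 4491. Distances and ranks among Alb, Afp and Krt18 restate the choice of these genes, since the WT level weighs most in them. In all, 8 IDs had at most 1 count in WT and at least 50 in each knockout library, Alb and Afp among them. The same limits with KO1 as the low library were met by 15 IDs, and with KO2 as the low library by 11. These limits are raw counts that were not scaled to depth, so they stand for a different level in each library.

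The choice of genes set no limit on the size of the difference between the knockout libraries. It did ask for presence in both, which bounds how far Alb, Afp and Krt18 could differ between them. The difference between KO2 and KO1 divides the set, with Alb, Afp, Krt18 and Apob higher in KO2 than in KO1 and Krt8 lower. Alb was 1.61-fold higher in KO2 than in KO1 (1.27 to 2.04), Afp 1.55-fold (1.19 to 2.05) and Krt18 1.76-fold (1.49 to 2.08). The intervals of these 3 ratios overlap. Krt8 had a ratio of 0.793 (0.700 to 0.899), and Apob one of 2.63 (1.42 to 5.23). At 10 counts in sum, Apoa1 had a ratio of 0.885 with an interval of 0.210 to 4.26 that takes in 1. A ratio of at least 1.5 was common, being met by 19.6% of the tested IDs, and 16.3% lay further toward KO2 than Alb, 17.6% than Afp and 13.0% than Krt18. With 1 library on each side, these are values of those libraries and carry no test.

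**Figure D3:**
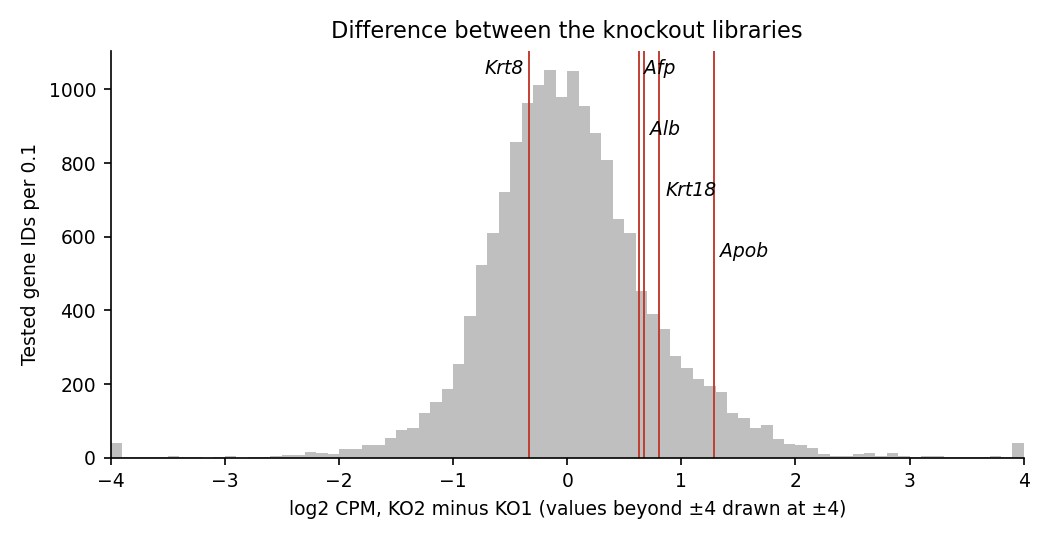
Number of tested gene IDs (vertical, per 0.1 log2 unit) by log2 CPM in KO2 minus KO1 (horizontal), with red lines at the 5 tested genes of the set. Afp, Alb and Krt18 lie together at 0.63, 0.67 and 0.81, Apob at 1.29, and Krt8 on the other side of 0 at -0.33.

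Within a library, the ratio of 2 genes does not depend on sequencing depth or scaling, so shares of gene pairs were compared. Afp made up 43.3% of the Alb and Afp counts in KO1 (77 of 178; 35.9 to 50.9) and 42.5% in KO2 (203 of 478; 38.0 to 47.0). Krt18 made up 66.1% of the Krt18 and Alb counts in KO1 (60.4 to 71.5) and 68.1% in KO2 (64.9 to 71.2). The intervals of KO1 and KO2 overlap for both shares, so at this depth no difference in the ratios of Alb, Afp and Krt18 was seen beyond counting error. These genes were chosen as present in both knockout libraries, so the likeness of their shares is a description. Krt18 made up 30.9% of the keratin counts in KO1 (197 of 638; 27.3 to 34.6) and 49.7% in KO2 (587 of 1180; 46.9 to 52.6), against 5.91% in WT (11 of 186; 2.99 to 10.3). The intervals of KO1 and KO2 do not overlap. They cover counting error within 1 library each, and no spread between like libraries is known for this share. The low share in WT follows from the choice of Krt18 and is a description.

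**Figure D4:**
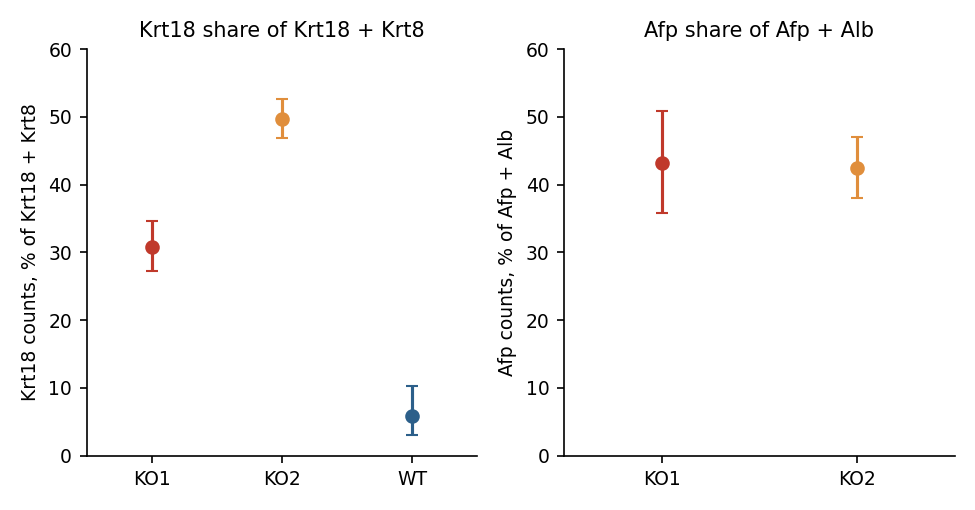
Left, Krt18 counts as a percentage of Krt18 plus Krt8 counts in KO1, KO2 and WT; right, Afp counts as a percentage of Afp plus Alb counts in KO1 and KO2 (WT holds a single count of the pair); bars are 95% exact binomial intervals. The keratin share is 30.9%, 49.7% and 5.91%, while the Afp share is 43.3% and 42.5%.

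The counts of the other plasma proteins were set beside those of albumin. No liver library was used here, so these shares have no liver value to be read against. For Ttr there were 0 counts beside 101 of Alb in KO1, a share of 0 with an upper limit of 3.59%, and 1 beside 275 in KO2 (0.362%; 0.00917 to 2.00). Apoa1 made up 3.81% of the Apoa1 and Alb counts in KO1 (1.05 to 9.47) and 2.14% in KO2 (0.788 to 4.59). Apob made up 11.4% of the Apob and Alb counts in KO1 (6.21 to 18.7) and 17.4% in KO2 (13.5 to 21.9), while WT held 11 Apob counts and 0 of Alb. Together Ttr, Apoa1 and Apob had 0.901 CPM in KO1 (0.525 to 1.44) and 2.03 CPM in KO2 (1.57 to 2.59), against 0.879 CPM in WT (0.454 to 1.54). Alb and Afp together had 9.44 CPM in KO1 (8.10 to 10.9) and 14.9 CPM in KO2 (13.6 to 16.4), against 0.0732 CPM in WT. These shares compare counts, which also follow gene length. Markers of other cell types could not be looked up by name, and their part in these levels was not tested.

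Levels per length were read from the deposited FPKM values, which scale reads to gene length and library size. In KO1 the order was Krt8 at 14.8 FPKM, Krt18 at 7.64, Alb at 2.74, Afp at 2.43, Apoa1 at 0.39, Apob at 0.12 and Ttr listed at 0. In KO2 Krt18 came first with 14.3 FPKM, followed by Krt8 at 12.5, Afp at 4.89, Alb at 4.68, Apoa1 at 0.25, Apob at 0.19 and Ttr at 0.07. In WT Krt8 led with 8.88 FPKM, far above Krt18 at 0.64, Apob at 0.39, Ttr at 0.16 and Afp at 0.04, with Alb and Apoa1 listed at 0. Krt8 and Krt18 changed places between KO1 and KO2, so these libraries give no common order for them. Alb and Afp also changed places, but the gene length implied for Afp differs between the libraries. At the length implied in KO1, Afp would have 4.01 FPKM in KO2, under the 4.68 of Alb, so their order is not settled. On this scale Alb and Afp in knockout testis were of middling level among all IDs, those without counts included. A lower FPKM than that of Alb was held by 46.8% of IDs in KO1 and 52.6% in KO2. For Afp the values were 45.5% in KO1 and 53.2% in KO2. The other plasma protein genes stood lower: Apoa1 at 29.8% in KO1 and 26.6% in KO2, Apob at 22.8% and 25.0%, and Ttr at 0% and 20.2%. Krt18 stood above 59.2% of IDs in KO1 and 67.9% in KO2, against 32.6% in WT. Krt8 stood above 69.0% of IDs in KO1 and 66.0% in KO2, against 59.8% in WT.

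The counts and the FPKM values differ for part of the set. Dividing each count by its FPKM and library total gives the gene length that would join the 2 tables. For Krt8 this length came to 1502 bases in KO1, 1502 bases in KO2 and 1501 bases in WT. Krt18 gave 1300 bases in KO1, 1301 in KO2 and 1309 for WT, and Alb gave 1859 in KO1 and 1856 in KO2. For Afp it was 1598 in KO1 and 1311 in KO2, a ratio of 1.22 that 8.77% of 12118 IDs with at least 50 counts and an FPKM of at least 1 in both knockout libraries matched or exceeded. Apob gave 5464 in KO1 and 9640 in KO2, against 2149 in WT, and Apoa1 517 in KO1 and 758 in KO2. These steps are larger than the rounding of FPKM allows. The direction for Apob depends on the table: by counts its knockout mean was 1.25 ± 0.795 CPM (SD, n = 2), against 0.806 CPM in WT, and by FPKM 0.155 ± 0.0495 (SD, n = 2), against 0.39 in WT. The direction for Alb, Afp, Krt18 and Krt8 was the same in both tables, with both knockout libraries above WT.

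**Figure D5:**
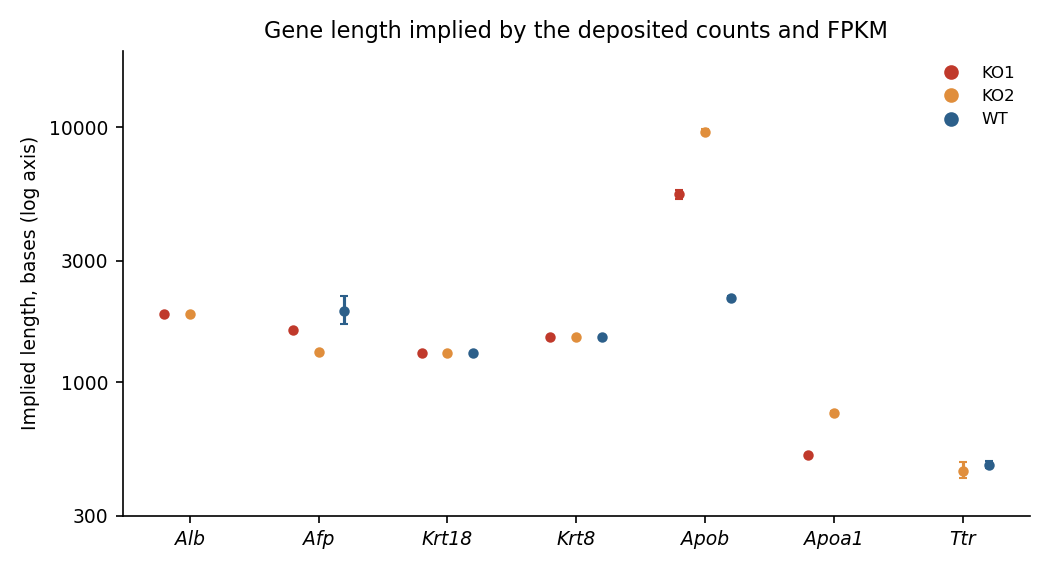
Gene length in bases (log axis) that the deposited counts, FPKM and library totals imply for the 7 genes in KO1, KO2 and WT, where bars are the range that rounding of FPKM allows and libraries with 0 counts have no point. Krt18, Krt8 and Alb have about the same length in every library with counts, while Apob lies at 9640 in KO2 and 2149 in WT.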

How the data were processed

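Ribosome profiling libraries of mouse testis, 2 labelled knockout and 1 wild type, were used. The authors deposited raw counts per Ensembl gene ID and, for the same IDs, FPKM values. Per the submitters' processing notes, HISAT2, featureCounts and build GRCm38 were used; versions, annotation, read-length selection, strand and multi-mapping settings, and the FPKM tool are unknown. The labels' protocol describes nuclease-protected fragments from testis nuclei and also poly(A) selection and fragmentation, so "footprint" follows the labels.

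The 7 genes, the gene lists and the tests were chosen with earlier results of these data known. The gene symbols came with that choice of IDs; the files do not pair them, and 0 rows of the RefSeq gene table hold an Ensembl ID. All 7 symbols matched that table, and 6 its promoter windows. For this reason 10 lists of liver, endoderm, epithelial, epididymal, blood and testis genes could not be used, and genes outside the 7 were named by ID only. The rule for names took all 7 members and the IDs most like Alb, Afp and Krt18, of which the nearest to Alb and to Krt18 are printed.

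Counts were fitted over the whole table with edgeR 4.0.16 under R 4.3.3 (IDs kept by filterByExpr, TMM factors of 0.951 for KO1, 1.01 for KO2 and 1.04 for WT, quasi-likelihood F-test, genotype as the only term, Benjamini-Hochberg adjustment). CPM used these effective sizes and log2 CPM a prior count of 2. A fold against 0 counts used a floor of 3 counts per library; other folds are ratios of summed counts with exact intervals. PCR copies are not independent molecules, so intervals may be too narrow. Alternatives were DESeq2 1.42.0, limma 3.58.1 on log2 FPKM with pseudocounts of 1 and 0.1, other scalings, filters and prior count, and random thinning to 13126663 counts. The fit was also run on simulated data with the same relative spread for every gene, and no result given here rests on that run. Figures were drawn with matplotlib 3.10.9.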

Additional observations from a re-analysis of the deposited data

How the results depend on the processing

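No paired analysis was possible because there is only 1 wild-type library and it carries no replicate number. Leaving out a knockout library leaves 1 against 1, so the test across IDs was not run there, and the gene lists could not be run. Against 16 IDs past the threshold, DESeq2, other scalings and thinning gave 13 to 21. With no filter 68 passed, and 6 did when every library had to hold at least 10 counts, a filter that removes Alb and Afp by construction and left Krt18 among those called. The limma fits of FPKM called 0 at a pseudocount of 1, where 336 IDs had an unadjusted p under 0.05, and 0 at 0.1, where 669 did; the cause was not tested. The number of the 7 genes above WT in both knockout libraries was 5, also in the planned thinning. Without KO1 it was 6 and without KO2 it was 5. In 20 repeated thinnings, added after seeing the data, it ran from 4 to 6: Alb, Afp, Krt18 and Krt8 were above WT in all 20, Apoa1 in 17, Apob in 1 and Ttr in 0. WT is the smallest library and kept its counts in every draw, so the thinnings say nothing on how WT varies. For Alb, Afp and Krt18 the outcome followed from their choice. Of 35 alternative values of the log2 difference in single genes with all libraries kept, 24 moved by less than 1 SD of KO1 and KO2, 10 by more, and 1 changed sign. The sign changed for Apob, where 0.44 became -0.96 on FPKM. With KO2 left out it also changed to -0.20, against 1.09 without KO1. For Alb the difference of 6.21 depended on the prior count, with 8.19 at a prior of 0.5, since WT is at 0. Depth limits Ttr, Apoa1 and Apob most, at 2, 10 and 82 counts in sum.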
